A study of Mus musculus with 2 samples.

Results

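The Genomic class of a long-read RNA library collects reads that lie in an annotated gene without fitting its exons and introns. Their transcript models within annotated genes numbered 6762 of 58867 models in replicate 1 and 12126 of 97558 models in replicate 2. They were the models whose transcript class was Genomic and whose gene was annotated, without those on the spike-in sequences of the Ambion (ERCC) mix 1. These models held 36875 of 853589 reads in 5448 genes in replicate 1, and 128203 of 1748822 reads in 8250 genes in replicate 2. The tissue was gastrocnemius, a calf muscle, of female B6CASTF1/J mice aged 36 days, first-generation hybrids of C57BL/6J and CAST/EiJ. Both libraries form 1 group with no comparison between conditions, so every difference below is between 2 libraries. The labels number the mice as separate females under 1 shared donor entry, and each library started from 2 µg of RNA with the Lexogen set 4 and Ambion mix 1 spike-ins added. All 7 skeletal muscle markers were detected in each library, the lowest at 30.1 CPM in replicate 1 and 1304 CPM in replicate 2, and both brain markers were at 0 reads. Markers of blood cells (2061 and 455.0 CPM summed) and adipocytes (380.1 and 68.7 CPM) were higher in replicate 1 than in replicate 2, and their part in the results below was not tested.

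A messenger RNA ends where the cell cuts the transcript and adds a poly(A) tail, usually shortly after the signal AATAAA or its variant ATTAAA. The last exon commonly carries the 3′ untranslated region, and many genes hold several possible cleavage points within it. Introns are removed as a transcript matures, so an RNA read inside an intron can come from an unfinished transcript, from a retained intron or from another transcript that starts or ends there. A read without any splice junction shows none of its gene's introns, and its class depends on where its ends were placed.

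Most leading 3′ ends of the class lay behind such a signal and some did not, so the last 30 bases before the end are shown for leading genes of both kinds. They are reference bases, taken from the annotated GENCODE M21 exons on mm10, in the sense of the gene, with AATAAA or ATTAAA in capitals. The first 3 are ends within a last exon, the next 4 are ends of models that run across an intron, Xirp2 had this Genomic end in replicate 2 alone, and the last 2 hold no signal in 50 bases.
Apobec2, chr17:48419231-48419260, minus strand: atagcaacatcAATAAAggaaataagtggt
Mrpl30, chr1:37898309-37898338, plus strand: ttctcATTAAAgtgtatgttcatccagtca
Ybx3, chr6:131364855-131364884, minus strand: caaaAATAAAatttttaccttcaaaggaaa
Mylpf, chr7:127214258-127214287, plus strand: tcAATAAAactcaactggtctttgtttctt
Tnnt3, chr7:142515979-142516008, plus strand: tctaggAATAAAgttatcagactcccctct
Tnni2, chr7:142444379-142444408, plus strand: ctcgctccAATAAAggattcacatctcttt
Tcap, chr11:98384924-98384953, plus strand: tagcactgcAATAAAtgctcagccatgttc
Xirp2, chr2:67526585-67526614, plus strand: aaAATAAAattttgtcaactgagatgcaaa
Slc25a4, chr8:46207136-46207165, minus strand: tccctgcccttattaactactaacagactg
Esrra, chr19:6910977-6911006, minus strand: agaaaaaaaatatactatggagctcaagta
The signal ended between 13 bases (Apobec2) and 22 bases (Mylpf and Xirp2) before the model's end in the 8 windows that hold it. Esrra ended on an annotated 3′ end without the signal, and Slc25a4 ended 339 bases from the nearest annotated 3′ end. The end of the Hhatl model, past its gene, also had no signal in 50 bases.

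Annotated mouse genes held 797105 reads in replicate 1 and 1602272 reads in replicate 2. The Genomic share of them was 4.63% in replicate 1 (Clopper-Pearson 95% interval 4.58 to 4.67%) and 8.001% in replicate 2 (7.96 to 8.04%), a mean of 6.31% ± 2.39 (SD, n = 2). The intervals do not overlap, but they describe the counting alone: the reads carry no molecular identifiers. Known models, which match an annotated transcript, took 66.6% and 67.6% of the reads. Incomplete splice matches, which hold a part of an annotated transcript, took 10.7% and 15.8%. Models with unannotated splice sites took 13.3% in replicate 1 and 4.89% in replicate 2. The gene Atp2a1 alone held 83625 of their 106172 reads in replicate 1 and 43573 of 78344 in replicate 2. The Genomic class was therefore smaller than the incomplete class in both libraries, and both were larger in replicate 2.

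Nearly all Genomic reads were unspliced and most lay in the last exon. Models of 1 exon held 99.1% and 99.4% of the Genomic reads. By place, models within an annotated last exon took 73.6% of the Genomic reads in replicate 1 and 73.3% in replicate 2 (mean 73.5% ± 0.17, SD, n = 2). Models across an exon-intron border (at least 10 bases in each) took 11.6% and 8.57%, and models inside an intron took 8.69% and 8.42%. Models past an end of the annotated gene took 4.56% and 8.07%, models within another exon 0.692% and 1.03%, and spliced models 0.889% and 0.559%. Counted as models, those inside an intron made up 19.6% and 28.5%, and 74.8% and 70.5% of these rested on 1 read.

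**Figure D1:**
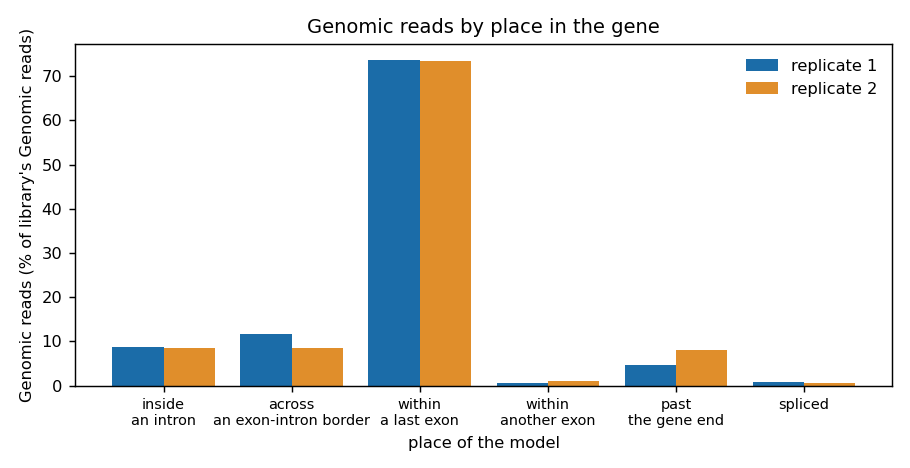
Genomic reads by place in the gene, as a percentage of each library's Genomic reads (vertical axis), for 6 places (horizontal axis), with replicate 1 left and replicate 2 right. The last exon holds 73.6% and 73.3% of the reads, and no other place exceeds 11.6%.

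The deposited coordinates of these models were often placed on annotated ends and cannot be read as the extent of a read. In replicate 1, 67.2% of the Genomic reads, and in replicate 2, 70.8%, were in models whose 3′ end fell exactly on an annotated 3′ end of the gene. In 39.7% and 46.2% the model's 5′ end was itself an annotated 3′ end, and in 34.7% and 39.2% both ends were annotated 3′ ends. Models of 1 base held 8.76% and 11.7% of the Genomic reads, and models under 50 bases held 18.1% and 19.03%. Apobec2 is the leading case: 1 model of 1 base, at position 48419231 of chromosome 17, held all of its Genomic reads in both libraries. None of the 6569 and 11761 single-exon Genomic models had the coordinates of an annotated exon of its gene. Of the single-exon incomplete splice matches, 87.8% in replicate 1 and 83.1% in replicate 2 had exactly such coordinates.

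Last-exon models were led by Apobec2, a member of the APOBEC deaminase family that is expressed in muscle. It had 1043 Genomic reads in replicate 1 and 5538 in replicate 2, which are 1308 and 3456 CPM (CPM, reads scaled to the library's total in annotated genes). These were 81.5% and 89.8% of the reads of the gene, and Known models held 224 and 598 reads. Esrra, an orphan nuclear receptor that drives genes of oxidative metabolism, had 241 and 2852 Genomic reads, 96.0% and 99.1% of its reads. All lay in 1 model of 73 bases at the end of the gene, which also overlaps an exon of Trmt112, a methyltransferase cofactor, on the opposite strand. Whether the counting used strand was not given in the sources used here, so Esrra and Trmt112 cannot be told apart there.

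Mrpl30, a protein of the mitochondrial ribosome, had 378 and 2433 Genomic reads, 78.4% and 87.3% of its reads. Ybx3, a cold-shock-domain RNA-binding protein, had 481 and 1660 Genomic reads, 24.4% and 37.9% of its reads. Ndrg2, of the N-myc downstream-regulated family, had 226 and 1288 Genomic reads, 18.1% and 37.7%. For Mrpl30, Ybx3 and Ndrg2 the leading model had the same coordinates in both libraries, 174, 236 and 13 bases long. The Genomic CPM of each of these genes was higher in replicate 2. Reads were not divided by transcript length, so the order of genes is an order of reads.

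**Figure D2:**
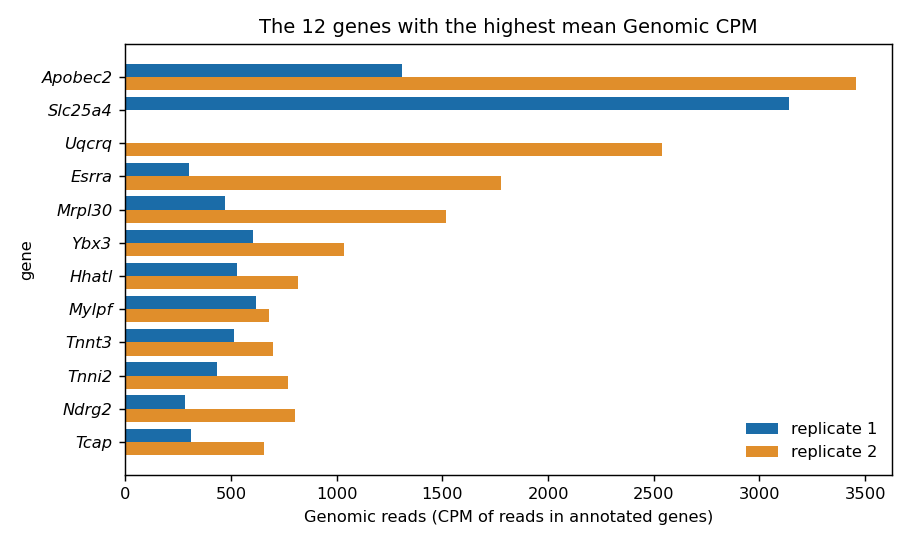
Genomic CPM (horizontal axis) of the 12 genes with the highest mean over the libraries, with replicate 1 above replicate 2. Apobec2 leads with 1308 and 3456 CPM, Slc25a4 has 3139 CPM in replicate 1 and no Genomic read in replicate 2, and Uqcrq has 1.25 and 2539 CPM.

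Several genes were read almost wholly as Genomic. Among genes of 100 or more reads in both libraries, the highest shares were those of Cfap77 (202 of 202 and 381 of 381 reads) and Usp50 (114 of 114 and 704 of 704 reads). Tsc1, which encodes hamartin, an inhibitor of mTORC1 signalling, had 170 of 171 and 1028 of 1030 reads in the class, at the end of its last exon. Esrra came next, and Gabarapl1, an ubiquitin-like protein of autophagosomes, had 94.5% and 97.2%. Plec, the cytoskeletal linker plectin, had 84.0% and 98.4%, and Fopnl, a centrosomal protein gene, had 88.8% and 91.4%. The last of the 8, Gm20388, had 91.5% and 85.9%.

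In Cfap77 and Usp50 the models began on a pseudogene. The Cfap77 model, chr2:28933429-28933610 on the minus strand, lies inside an intron of this gene of cilia and flagella. Its 5′ end is the annotated 3′ end of Gm13394, a processed pseudogene at chr2:28933610-28934609, so that they share 1 base. The Usp50 model, chr2:126709096-126709354, likewise begins on the 3′ end of the processed pseudogene Gm10774 at chr2:126709354-126709557. Models that begin on an annotated 3′ end of another gene held 1.67% and 1.79% of all single-exon Genomic reads, but 13.3% and 11.9% of those inside introns.

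Prr33 had 276 and 497 Genomic reads, of which 205 and 353 were inside an intron. Its leading intron model of 205 and 352 reads lies opposite exons of Tnnt3, the fast skeletal troponin T gene, which is among the most read genes of the class. Gm20388, annotated over a region that also holds Nup133 on the opposite strand, had 97 and 146 Genomic reads spread over 20 and 38 models. Of the intron reads, 24.2% and 21.9% were in models that overlap an exon of another gene on the opposite strand, and 16.3% and 14.6% an exon on the same strand. Trdn, which encodes triadin of the calcium release complex, had 22 and 103 Genomic reads, most of them in introns, out of 1246 and 4649 reads. In both libraries, 20 or more reads stood at 10 of 4171 intron end sites, against 145 of 8818 last-exon sites.

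Gm45692 shows how the assignment to a gene itself differed. It had no read in replicate 1 and 381 reads in replicate 2, of which 380 were in 1 Genomic model at chr8:26141325-26143871. That model lies within Rnf170, a ubiquitin ligase gene on the same strand at chr8:26119368-26151790, and begins on an annotated 3′ end of that gene. In replicate 1, 73 of the 93 reads of Rnf170 were in an incomplete splice match at chr8:26140811-26143871, with the same 3′ end.

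Across exon-intron borders, the genes with the highest mean Genomic CPM over both libraries were Mylpf, Tnnt3, Tnni2 and Tcap. Some border models with more reads than these in 1 library had none in the other. Mylpf, the fast myosin regulatory light chain, had 495 and 1092 Genomic reads in 1 model of 392 bases that holds 1 whole annotated intron. They were 2.17% and 2.72% of its 22782 and 40170 reads. Tnni2, fast skeletal troponin I, had 347 and 1232 Genomic reads, 6.42% and 12.5% of its reads, in a model that holds 2 whole introns. Tnnt3 had 411 and 1122 Genomic reads, 14.1% and 16.8%. Tcap, the telethonin gene of the Z disc, had 249 and 1055 Genomic reads, 6.04% and 6.66%, in a model over its 1 intron.

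Ldb3, a PDZ and LIM protein of the Z disc, had 188 and 460 Genomic reads, 80.0% and 84.1% of the gene. Most of them, 126 and 349 reads, lay across an inner border in models ending 2275 bases from an annotated 3′ end. Eno3, the muscle enolase, had 37 and 171 reads in a model of 5307 bases that holds 15 introns, counted over all its transcripts. Among border models, those holding at least 1 whole annotated intron took 85.0% and 69.3% of the reads. Because ends were placed on annotated positions, a model across a border does not show that each of its reads held the intron.

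Past the gene end, models ran beyond the 3′ end in 154 and 218 cases, by a median of 1240 and 846 bases. Hhatl, a membrane protein gene related to hedgehog acyltransferase, had 423 and 1308 reads, 68.8% and 85.4% of its reads, in a model that ends 728 bases past the gene. That stretch overlaps Klhl40, a kelch protein of muscle, on the opposite strand. Srl, the sarcalumenin gene of the sarcoplasmic reticulum, had 197 and 558 Genomic reads, with the leading model ending 3237 bases past the gene in replicate 1 and 1401 bases past it in replicate 2. Fopnl had 198 reads within its last exon in replicate 1 and 1117 reads in a model ending 811 bases past the gene in replicate 2. Uqcrq, a subunit of respiratory complex III, had 1 Genomic read in replicate 1, and 4068 in replicate 2 in a model ending 720 bases past the gene. Models past a gene end that hold a whole intron took 8.10% of the reads of this place in replicate 1 and 41.3% in replicate 2, where Uqcrq held most of them.

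Within other exons, Pabpc4, a cytoplasmic poly(A)-binding protein, had 50 and 161 Genomic reads, and Itgb1bp2, the muscle chaperone melusin, had 22 and 109. The Itgb1bp2 model ended on an annotated 3′ end in both libraries, and in replicate 1 it held 1 whole annotated intron. Hnrnpa2b1, an RNA-binding splicing regulator, had 68 Genomic reads led by a last-exon model in replicate 1 and 201 led by another exon in replicate 2, 19.2% and 16.2% of the gene. The spliced models were few, and the small nucleolar RNA genes Snord104 (15 and 60 reads) and Snora57 (22 and 36 reads) were among the highest. In replicate 1 these models ran past the gene's 3′ and 5′ ends, by 181 and 78 bases for Snord104 and 149 and 89 for Snora57. How much of their exons lay within the small nucleolar RNA was not counted. Small nucleolar RNAs guide the chemical modification of other RNAs.

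Genes with longer last exons had higher Genomic shares. The genes tested were the 3204 annotated ones with 20 or more reads in both libraries. The median Genomic share of a gene was 1.64% in replicate 1 and 2.62% in replicate 2. Where the longest annotated last exon was at most 500 bases, both medians were 0%. Between 1000 and 2000 bases they were 2.84% and 4.24%, and above 4000 bases they were 8.49% and 10.4% (250 genes). The 144 genes with over 50% in both libraries had a median longest last exon of 2372 bases, and 114 and 116 of them had most Genomic reads in the last exon. The 1002 genes under 1% in both had a median of 809 bases. The 124 genes of 1 exon had medians of 0%. These are descriptions across genes of the same 2 libraries.

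**Figure D3:**
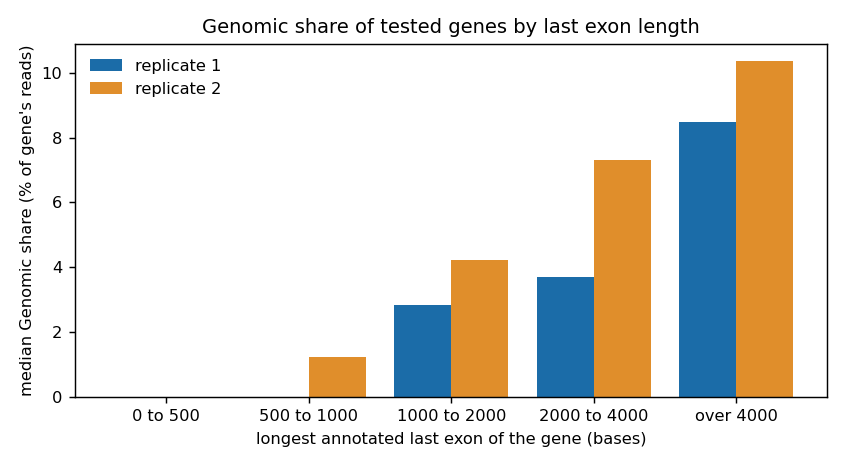
Median Genomic share of the 3204 tested genes (vertical axis, percent of a gene's reads) by the length of the longest annotated last exon in bases (horizontal axis), with replicate 1 left and replicate 2 right. The medians are 0% in both libraries up to 500 bases, and 8.49% and 10.4% above 4000 bases.

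Antisense and long intergenic RNA genes had more of their reads in the class than protein-coding genes. Of all reads in antisense genes, 47.1% and 52.3% were Genomic, and 28.2% and 29.5% in lincRNA genes. Prr33, annotated as a lincRNA gene, alone held 276 of the 613 and 497 of the 1790 Genomic reads of lincRNA genes. In protein-coding genes 4.53% and 7.88% were Genomic, and these genes held 95.7% and 95.9% of the Genomic reads. Processed pseudogenes had 0.548% and 0.637%.

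Most ends that fell on annotated 3′ ends lay behind a cleavage signal, and so did most annotated ends of Known models. The search was for AATAAA and ATTAAA, in the sense of the gene, in the last 50 bases. For last-exon models ending on an annotated 3′ end, 85.9% and 84.7% of the reads had a signal. For Known models it was 83.9% and 82.3%, taken at the annotated end. Last-exon models whose 3′ end lay over 50 bases from any annotated 3′ end had a signal in 27.3% and 46.5% of their reads, and in 51.8% and 49.5% of the models. Slc25a4 alone held 2502 of the 5519 reads without an annotated end in replicate 1. In the middle of the longest last exon of 45317 annotated genes, 3.70% of such windows held a signal. At those unannotated ends, 8.40% and 11.4% of the reads, and 19.3% and 16.1% of the models, had at least 50% A in the next 20 bases. The share was 5.46% for the middles, counted once each, and A-rich bases can start reverse transcription inside a transcript. These motif matches are a description of reference letters, not of cleavage.

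The same model 3′ ends recurred in both libraries for most single-exon Genomic reads but not for most sites. Joined within 50 bases, the single-exon models gave 14565 end sites, of which 3725 had reads in both libraries. Such shared sites took 64.2% and 65.4% of the single-exon Genomic reads. Among last-exon sites 32.7% had reads in both, against 14.3% in introns, 16.6% across borders and 12.3% past gene ends. A site of 1 read cannot have reads in both, and these shares were not matched for reads per site. Models of 1 read made up 46.9% and 36.2% of last-exon models, against 74.8% and 70.5% of intron models. For 67.2% and 70.8% of the Genomic reads the model's 3′ end fell exactly on an annotated one. Annotated positions are common to both libraries, so a shared site does not show that reads ended there in each.

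Between the libraries, the Genomic share differed in 416 of the 3204 genes. A call was an adjusted p under 0.05 by Fisher's exact test (two-sided, Genomic against other reads of the gene, Benjamini-Hochberg over the 3204 genes) with a difference of at least 10 percentage points. That is 13.0% of the genes tested, with 78 (2.43%) higher in replicate 1 and 338 (10.5%) higher in replicate 2. The test compares the reads of 2 libraries and has no spread between animals. For the 218 genes of 20 or more Genomic reads in both, the median log2 ratio of Genomic CPM, replicate 1 over replicate 2, was -0.78, with 45 genes higher in replicate 1 and 173 in replicate 2. By all reads of a gene, the median log2 CPM ratio of the 3204 tested genes was -0.05. How many of those genes were higher in each library is not given here.

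In the genes with the largest differences, single-exon reads stood in the Genomic class in 1 library and in the incomplete class in the other. Xirp2, an actin-binding protein of muscle attachment sites, had 4 Genomic reads of 428 in replicate 1 and 1224 of 1295 in replicate 2. In replicate 1, 361 of its reads were single-exon incomplete splice matches, and in replicate 2 none were. Slc25a4, the heart and muscle ADP/ATP carrier of mitochondria, had 2502 Genomic reads of 7965 in replicate 1 and none of 32090 in replicate 2. Its single-exon incomplete reads were 0 in replicate 1 and 13472 in replicate 2. Uqcrq had 551 single-exon incomplete reads in replicate 1 and 0 in replicate 2, beside its 1 and 4068 Genomic reads.

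The other named genes with the largest differences had the same pattern of classes. Among those higher in replicate 2, Ece1, an endothelin-converting enzyme, had 0 and 117 Genomic reads and 26 and 0 single-exon incomplete reads. Whamm, a factor of actin assembly, had 0 and 58 against 17 and 0, and Mlxipl, a carbohydrate-responsive transcription factor, 0 and 333 against 53 and 0. Among those higher in replicate 1, Vac14, a scaffold of a phosphoinositide kinase complex, had 31 and 0 Genomic reads and 0 and 158 incomplete ones. AI837181 had 48 and 0 against 0 and 113, Ywhag, a 14-3-3 protein, 43 and 0 against 0 and 85, Mfsd5 40 and 0 against 0 and 140, and Rxra, the retinoid X receptor alpha, 39 and 0 against 0 and 71. The leading models of the 2 classes ended on the same base in Ece1, Whamm, Vac14, AI837181, Ywhag, Mfsd5 and Rxra, and 8 bases apart in Xirp2. They overlapped but ended 339 bases apart in Slc25a4, 1751 bases apart in Uqcrq and 1839 bases apart in Mlxipl. Part of the difference stood when both classes were added: Ece1 then had 61.9% and 95.1%, and Mlxipl 65.4% and 91.5%, and both were still called higher in replicate 2. Ywhag (81.1% and 98.8%) and Vac14 (73.8% and 90.8%) were then called in the other direction, higher in replicate 2. Whamm, AI837181, Mfsd5 and Rxra were then not called in either direction.

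**Figure D4:**
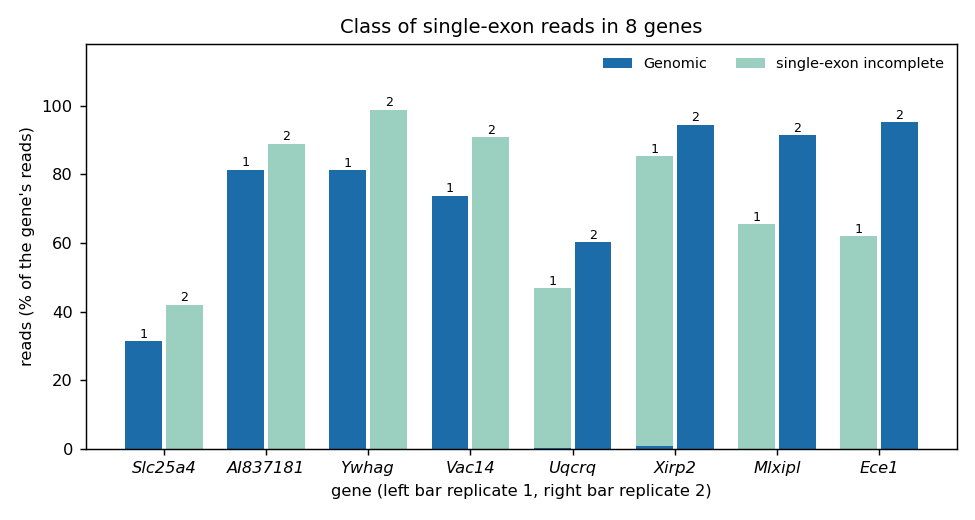
Genomic and single-exon incomplete reads as a percentage of the gene's reads (vertical axis) in 8 genes (horizontal axis), with replicate 1 left and replicate 2 right and the replicate number above each bar. In each gene 1 class holds nearly all of these reads in 1 library and the other class in the other library, as for Slc25a4 with 31.4% Genomic in replicate 1 and 42.0% incomplete in replicate 2.

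Of the tested genes, 10 were over 50% Genomic in replicate 1 with no Genomic read in replicate 2, and 28 the other way round. All 10 and all 28 had single-exon incomplete reads in the library without Genomic reads. Any such read counted, wherever it lay in the gene. The share of all 3204 genes with such reads was not taken, so these counts have no background beside them. When both kinds of read were added, a choice made after the data were seen, 402 genes were called (12.5%), 4 (0.125%) higher in replicate 1 and 398 (12.4%) higher in replicate 2. Of the 78 genes called higher in replicate 1, 3 were still called in that direction, and of the 338 called higher in replicate 2, 264 were. Across the 3204 genes, which are not independent replicates, the Pearson correlation between the libraries was 0.79 for the Genomic share and 0.91 for the summed share. The 4 genes higher in replicate 1 were Cmss1, Gm20427, Gm3448 and Rnf170, named after their values were seen. For Rnf170, 73 of 93 reads in replicate 1 were in an incomplete model. In replicate 2, 380 reads with the same 3′ end were counted to Gm45692, and their part in this call was not tested.

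**Figure D5:**
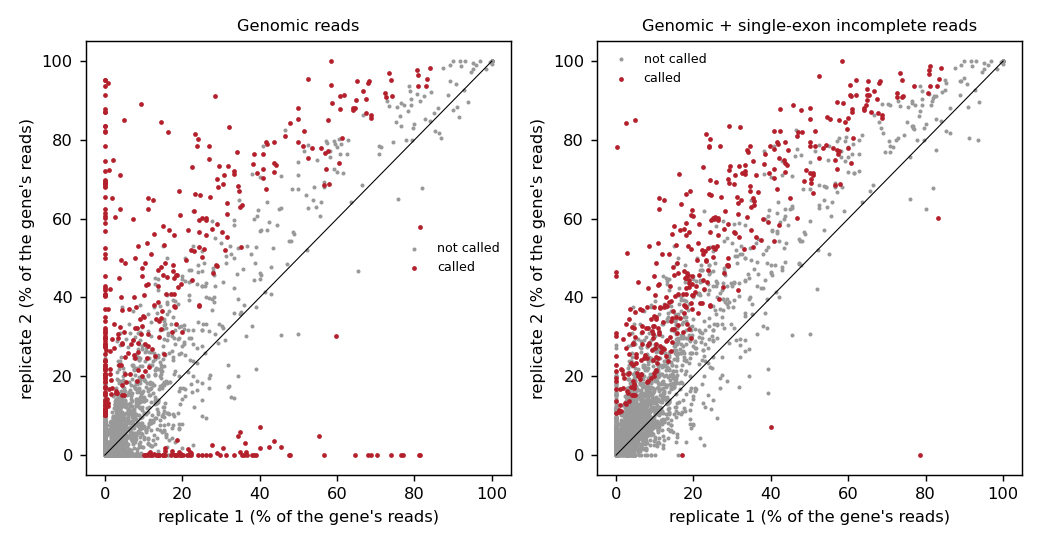
Share of a gene's reads in replicate 1 (horizontal axis, percent) and replicate 2 (vertical axis, percent) for 3204 genes, for Genomic reads (left) and for Genomic plus single-exon incomplete reads (right). Points on the axes of the left panel, read in the class in 1 library alone, are largely gone on the right, where 398 of the 402 called genes lie above the diagonal.

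By the summed count, these single-exon reads made up 6.78% in replicate 1 and 12.9% in replicate 2. Slc25a4 then had 31.4% and 42.0%, Uqcrq 46.7% and 60.2%, and Xirp2 85.3% and 94.5%, each higher in replicate 2. Ttn, which encodes titin, had 21 of 286 and 290 of 485 Genomic reads (7.34% and 59.8%), and 33.9% and 60.4% by the summed count, and was called higher in replicate 2 by either count.

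The giant sarcomere and Z disc genes had a median Genomic share of 0.935% in replicate 1 and 6.66% in replicate 2 over 25 tested genes. Of these, 1 was called higher in replicate 1 and 8 in replicate 2, beside 2.43% and 10.5% of all genes tested. By the summed count the medians were 15.3% and 33.3%, with 0 and 10 called. In the thick and thin filament list, 0 and 3 of 16 tested genes were called, with Mybph, a myosin-binding protein (24.2% and 38.1%), and Tmod1, a thin-filament capping protein (17.8% and 37.8%), among those named. By the summed count the medians were 3.80% and 7.36%, again with 0 and 3 called. Mybph ran across introns in replicate 1 and lay within the last exon in replicate 2. Tpm1, an alpha-tropomyosin, had 0.341% and 0.396% Genomic reads of 24040 and 40878.

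In the calcium handling list, 1 gene was called higher in replicate 1 and 7 of 20 higher in replicate 2, beside 2.43% and 10.5% of all genes. By the summed count 0 and 9 were called, with medians of 14.5% and 30.6%. Jph2, a junctophilin that holds the sarcoplasmic reticulum to the T-tubule, had 67.6% and 86.7%, a difference no longer called with replicate 2 thinned to the depth of replicate 1 (Fisher's exact test, adjusted p = 0.097), and Jsrp1, a sarcoplasmic reticulum protein, 28.0% and 46.1%. Atp2a1, the calcium pump of fast fibres and the most read gene of replicate 1, had 80 and 168 Genomic reads of 87684 and 48342, which are 0.0912% and 0.348%. Atp2a1 had less than 1% Genomic reads in both libraries.

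For glycolysis and energy buffering the medians were 0.415% and 0.551% over 24 genes, with 2 and 3 called, the second near the 10.5% of all genes. By the summed count the medians were 4.13% and 7.47%, with 0 and 6 called. Hk2, hexokinase 2, had 59.7% and 30.1%, but 59.7% and 82.7% by the summed count, which turned its direction round. The leading incomplete model of Hk2 in replicate 2 lay 48893 bases from the end of its leading Genomic model in replicate 1, with no shared base. Ldha, lactate dehydrogenase A, had 1.37% and 1.34%, and Pgam2, the muscle phosphoglycerate mutase, 1.11% and 0.966%, and neither was called. Mitochondrial respiration genes had medians of 0% and 0.00976% over 27 genes, with 1 called in each direction. Their reads pooled were 9.16% and 0.639% Genomic, the other direction, and Slc25a4 held 2502 of the 2579 Genomic reads of replicate 1. Uqcrq, with 1 and 4068 Genomic reads, was not in this list, which held 708 Genomic reads in replicate 2. The pooled direction and the calls therefore do not cover Uqcrq. By the summed count the medians were 1.67% and 2.79%, with 0 and 6 called. Sdha, of respiratory complex II, was the one higher in replicate 2, with 11.2% and 27.6%.

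Among the channels and membrane genes the medians were 9.67% and 17.3% over 20 genes, with 1 and 8 called, and 0 and 7 by the summed count. Dysf, the membrane repair protein dysferlin, had 68.8% and 86.4%, a call lost with replicate 2 thinned (Fisher's exact test, adjusted p = 0.13). The transcription factors and clock list had medians of 18.2% and 31.9% over 17 genes, with 0 and 2 called, and 0 and 4 by the summed count. Mef2d had 26.3% and 56.0%, and Nfix 36.4% and 30.2% without a call. The ubiquitin ligases and atrophy genes had medians of 4.35% and 7.04% over 15 genes, with 0 and 5 called, among them Fbxo40 with 23.3% and 66.2%, and 0 and 6 by the summed count. Splicing factors and kinases had medians of 4.17% and 10.2% over 17 genes, with 2 and 3 called, and 0 and 3 by the summed count. The 4 tested noncoding and imprinted genes had none called by either count. For all genes tested the medians were 1.64% and 2.62%, with 2.43% and 10.5% called, and by the summed count 4.65% and 8.61%, with 0.125% and 12.4% called.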

How the data were processed

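Per the README beside the files, the authors made the deposited annotations and counts from filtered alignments to mm10 with GENCODE M21, and the classes are TALON's, per the file headers. The deposited counts are whole reads per transcript model, not normalized and not pooled. The aligner, read correction and filters were not stated in any source used. The members, gene lists and tests were chosen with earlier results of these data known. Models were placed by their deposited coordinates against the annotated exons of their gene, and a model within the last exon of any transcript counted as last exon. Other models covered by the joined exons of all transcripts counted as within another exon, also where they reached the gene's end. The named genes are the 12 highest by mean Genomic CPM, the 8 highest by mean Genomic share (at least 100 reads in each library), 4 per place, the 5 largest called differences in each direction, and list members with at least 20 Genomic reads in each library. CPM used the 797105 and 1602272 reads in annotated mouse genes, so 1 read is 1.25 and 0.624 CPM, and a count of 0 allows 3 reads. No mm10 genome was used here, so end sequences were read through annotated exons, from the 141767 of 141862 transcripts whose length matched. Sequence before the end was then available for 88.4% and 85.5% of single-exon Genomic reads. Sequence after it was available for 32.7% and 30.5%, too few for the whole class, so both are given for last-exon models alone. Replicates are separate females in the labels. Fisher's test was tested on simulated data: of 200 genes shifted by 30 points among 3204 genes, 79.0% were recovered with their direction, and 0 others were called. Apart from the shift, both simulated libraries drew their reads from the same share per gene. The simulation therefore held no spread between libraries and does not give the rate of false calls in these data. Alternatives included edgeR 4.0.16 TMM and DESeq2 1.42.0 scaling (R 4.3.3). Python 3.11.15, numpy 2.4.6, scipy 1.17.1 and pandas 2.3.3 were used. A few genes that these rules name are not reported here.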

Additional observations from a re-analysis of the deposited data

Results flagged for a closer look

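Genomic class reads were also counted outside annotated genes. The antisense and intergenic loci that the authors' processing added held 308 Genomic reads in 128 models in replicate 1 and 1855 Genomic reads in 508 models in replicate 2, above the limit of 3 reads that a count of 0 allows. The spike-in sequences held 4 and 1 Genomic reads. Neither set entered the comparisons above.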

How the results depend on the processing

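No paired analysis was possible because the 2 libraries form 1 group. The comparison was of 1 library with 1 library, which leaves no permutation test between them. Even an exact permutation test of 2 against 2, which these data do not offer, could not give a p under 0.333. The Fisher calls hold for these libraries alone. Adding single-exon incomplete reads, a choice made after the data were seen, moved the mean Genomic share of 6.31% to 9.85%, and without one replicate it was 4.63 to 8.001%. The share kept within its SD under the other alternatives, which were models with at least 2 reads, a denominator without incomplete matches, Atp2a1 left out and replicate 2 thinned to the depth of replicate 1.

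Weighted by models, the places averaged 24.1% inside introns, 5.79% across borders, 63.4% within last exons, 1.31% within other exons, 2.55% past gene ends and 2.93% spliced. With models of at least 50 bases only, also chosen after the data were seen, introns took 10.2%, borders 12.4% and last exons 68.0%. A minimum overlap of 1 base gave introns 7.22%. Without annotated retained-intron transcripts introns took 8.76% and last exons 73.1%. Ends matched within 10 bases gave 63.5% of reads in both libraries, within 200 bases 66.5%, and with replicate 2 thinned 63.6%. A-rich ends fell by construction to 6.05% at 60% A and 4.23% at 70% A, and were 17.7% weighted by models. AATAAA alone was found at 72.4% of the reads on annotated ends. The planned sequence comparisons with antisense and intergenic models and with intron midpoints were not run, since no genome was used.

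Of the 416 called genes (78 higher in replicate 1, 338 in replicate 2), 257 were called at 50 reads in each library (40 and 217), with fewer genes tested. Without last-exon models 54 were called (14 and 40). A minimum of 20 points left 47 higher in replicate 1, and adding single-exon incomplete reads left 4. With these reads added, the difference, replicate 1 minus replicate 2, turned to -10.6 points for Slc25a4, -17.7 for Ywhag, -17.0 for Vac14 and -23.0 for Hk2. All of these were called higher in replicate 2. The difference was -7.62 for AI837181, -5.92 for Mfsd5 and -13.4 for Rxra, without a call (Fisher's exact test, adjusted p = 0.50, 0.83 and 0.21). Whamm and Xirp2 were no longer called. With replicate 2 thinned, Jph2, Klhl31, Dysf and Sptb lost their calls, with differences of -18.4, -17.6, -14.9 and -28.3 points. Without incomplete matches in the denominator Hk2 was at -4.43. Without last-exon models the difference turned to 24.2 points for Mybph, 0.714 for Tmod1, 0.763 for Jsrp1, 0.263 for Sdha, 2.45 for Dysf and 3.03 for Sptb. Only 1 and 0 Genomic reads were then left for Tmod1, Sdha and Sptb, 2 and 0 for Jsrp1, and 2 and 1 for Dysf. Mybph models with the same 3′ end counted as border in replicate 1 (121 reads) and as last exon in replicate 2 (187 reads). Other scalings left the median log2 ratio of Genomic CPM, replicate 1 over replicate 2, between -0.83 (TMM) and -0.66 (total without Atp2a1), against -0.78. The TMM scaling moved the median of all tested genes, by all their reads, from -0.05 to -0.10. The cause of the differences between the libraries was not tested, and no read was followed from one class to the other.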
